A study of Arabidopsis thaliana with 18 samples.

Results

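The genes described here encode transporters for sugars, amino acids and related small solutes in Arabidopsis thaliana seedlings. They were taken from the authors' table of 6740 genes wherever the gene description held nodulin MtN21, nodulin MtN3, amino acid permease, amino acid transporter, sugar transporter, sucrose transporter or major facilitator, and AT5G13170 was left out. This gave 118 genes, from 6 of the 7 phrases, since no description with sucrose transporter was listed. By description and protein domain there were 7 amino acid permeases, 16 other amino acid transporters, 22 UMAMIT family genes and 8 SWEET family genes. A further 20 were carriers of the sugar, polyol and sucrose type, whose mode of transport was not assessed. The rest were 5 genes of the nucleotide-sugar type, 24 of the nitrate and peptide family, 6 nodulin-like and 10 other major facilitators. Major facilitator is a broad description: 58 of the 118 genes were found by it alone, and it takes in the nitrate and peptide family, whose substrates include nitrate, peptides, hormones and glucosinolates.

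Seedlings of 2 genotypes were sequenced, the pyl duodecuple line and its wild type, both in the Col-0 ecotype. The duodecuple line, named pyl112458 379101112, carries mutations in 12 genes of the PYR/PYL family, the soluble receptors of the stress hormone abscisic acid (ABA). Seedlings of each genotype, 9 days old, spent 24 h on filter paper with 100 µM ABA, with 300 mM mannitol, a sugar alcohol that withdraws water from the plant, or without either (control). Each of the 6 groups had 3 libraries, but the table holds 1 value per group in FPKM (fragments scaled to transcript length and sequencing depth; the header names no unit, and FPKM is inferred from the tools). The values therefore carry no replicate error and the depth per library is unknown. Here a gene rose or fell where the authors called it different from the control of its own genotype, and the calls and log2 ratios are theirs. Whole seedlings were used, so that fewer cells of a type and less RNA per cell cannot be told apart. Wild-type ABA and mannitol values share the wild-type control, and the duodecuple ones share the duodecuple control.

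Plants move carbon as sucrose and nitrogen largely as amino acids, from source leaves through the phloem to roots and other sinks. Proton symporters, such as the amino acid permeases, STP hexose carriers and SUC sucrose carriers, pull their substrate into cells against a gradient, whereas SWEET and UMAMIT proteins are mostly facilitators that let sugars or amino acids leave cells or cross the vacuole membrane. Under drought and osmotic stress plants build up soluble sugars and amino acids, proline among them, and ABA is a main signal in that response.

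By the authors' calls, ABA changed few of these transporter genes in duodecuple seedlings, and mannitol lowered more of them than it raised. In the wild type more rose than fell under either treatment. With calls limited to 4-fold, the lean on wild-type ABA was the other way, with 11 higher and 13 lower. In the duodecuple line ABA left 112 of the 118 genes without a call: 3 rose and 3 fell, 2.54% each, beside 2.49% and 2.79% of all listed genes. On mannitol 27 rose and 39 fell in the duodecuple line (22.9% and 33.1%), beside 23.3% and 27.2% of all listed genes. In the wild type on ABA 34 rose and 25 fell, which is 28.8% and 21.2% of the 118, beside 17.6% and 27.3% of all listed genes. On mannitol 50 rose and 32 fell in the wild type (42.4% and 27.1%), beside 33.1% and 35.3%. The shares that rose thus lay near those of all listed genes in the duodecuple line and above them in the wild type; no test of this was run. The median log2 ratio of the 118 genes was -0.02 on ABA and -0.09 on mannitol in the duodecuple line, and 0.02 and 0.23 in the wild type; over all listed genes it was -0.03, -0.29, -0.31 and -0.20 in the same order. All these shares are of a table that lists called genes, so they are not shares of the genome.

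**Figure D1:**
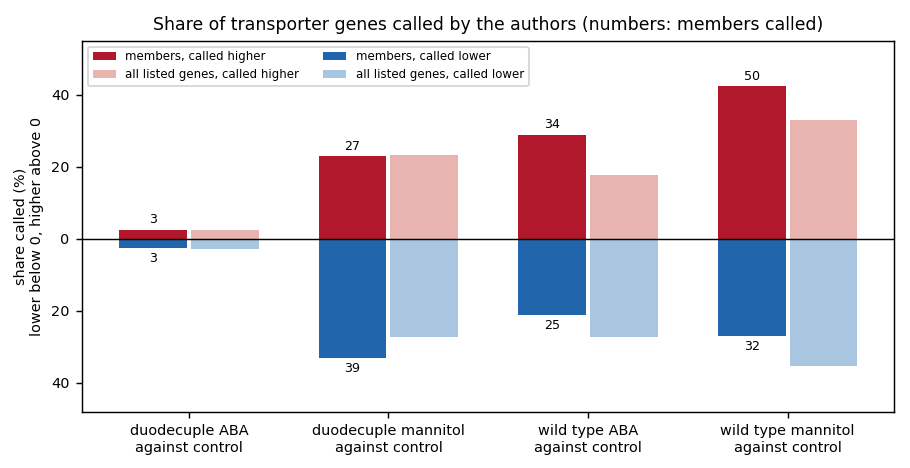
Share of the 118 transporter genes (dark bars) and of all 6740 listed genes (pale bars) that the authors called higher (above 0) or lower (below 0), in percent, for each treatment against the control of its genotype. Numbers on the bars count transporter genes: 3 higher and 3 lower in duodecuple ABA seedlings, and 50 higher in wild-type mannitol seedlings.

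The summed level of the transporter genes was lower in each duodecuple group than in the wild-type group of the same treatment. The 118 genes added up to 1991, 1987 and 1854 FPKM in duodecuple ABA, mannitol and control seedlings, against 2805, 3163 and 2282 FPKM in the same wild-type groups. The median gene stood at 7.31, 5.79 and 7.54 FPKM in the 3 duodecuple groups and at 10.2, 10.95 and 8.13 FPKM in the 3 wild-type groups. The highest single value was 329 FPKM, for AT5G14120 in wild-type control seedlings. A sum weighs abundant genes most: in control, AT5G14120 stood at 234 FPKM in the duodecuple line. STP1 stood at 69.4 FPKM in duodecuple control and 230 FPKM in wild-type control. For the 78 genes with at least 5 FPKM, the median log2 ratio of duodecuple over wild type in control was -0.11. All listed genes at that level had -0.05. Sums over all listed genes were not computed.

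The amino acid permeases are plasma membrane carriers that load neutral, acidic and basic amino acids into cells. Among the 7 listed ones, none was called on ABA and 3 rose and 1 fell on mannitol in the duodecuple line, while in the wild type 2 rose and 3 fell on ABA and 4 rose and 1 fell on mannitol. Of all listed genes 2.49% rose and 2.79% fell on duodecuple ABA, and 17.6% and 27.3% on wild-type ABA. On mannitol 23.3% rose and 27.2% fell in the duodecuple line, and 33.1% and 35.3% in the wild type. No family was tested against these shares. AAP1 (AT1G58360), an importer of neutral amino acids and glutamate in roots and seeds, had 36.4, 85.7 and 24.9 FPKM in duodecuple ABA, mannitol and control seedlings, against 192, 284 and 44.7 FPKM in the same wild-type groups. It thus rose 3.45-fold on mannitol in the duodecuple line, with no call on ABA, and 4.28-fold and 6.35-fold on ABA and mannitol in the wild type, where it was the highest of the 118 genes in both treated groups.

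AAP3 (AT1G77380), a carrier of basic and neutral amino acids, had 8.65, 47.01 and 8.31 FPKM in duodecuple ABA, mannitol and control seedlings, against 11.2, 41.5 and 9.94 FPKM in the same wild-type groups. Its mannitol rise was 5.66-fold in the duodecuple line and 4.17-fold in the wild type, and ABA left it without a call in both. AAP6 (AT5G49630), a high-affinity permease linked to amino acid uptake from the xylem, had 7.84, 16.3 and 11.2 FPKM in duodecuple ABA, mannitol and control seedlings, against 1.16, 3.85 and 5.54 FPKM in the same wild-type groups. Wild-type ABA seedlings, where it fell 4.77-fold, were the lowest of the 6 groups, and all 3 duodecuple groups stood above all 3 wild-type groups. AAP2 (AT5G09220), which moves amino acids between xylem and phloem, fell 2.101-fold on mannitol in the duodecuple line and 2.56-fold on ABA and 2.23-fold on mannitol in the wild type. AAP4 (AT5G63850) fell 2.196-fold on ABA in the wild type alone, with 17 FPKM on ABA and 37.3 FPKM in control. AAP5 (AT1G44100), an importer of basic amino acids in roots, rose 3.04-fold on mannitol in the wild type, and PUT1 (AT1G31820), a polyamine uptake transporter described as an amino acid permease, rose 2.14-fold on mannitol in the duodecuple line and 2.82-fold and 3.15-fold on ABA and mannitol in the wild type.

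Among the 16 other amino acid transporters stood the gene with the largest rise of all 118 in the wild type. AT2G41190, annotated as a transmembrane amino acid transporter without a symbol, had 6.17, 4.88 and 1.97 FPKM in duodecuple ABA, mannitol and control seedlings, against 118, 227 and 3.21 FPKM in the same wild-type groups. It rose in all 4 comparisons, 3.13-fold on ABA and 2.48-fold on mannitol in the duodecuple line, and 36.9-fold and 70.6-fold in the wild type. The difference between the genotypes' log2 responses was -3.56 on ABA and -4.83 on mannitol. The genes most like it in shape over the 6 groups, by Euclidean distance of centred log2(FPKM + 1) levels, were SWEET4 at 1.78, UMAMIT29 at 2.43 and UMAMIT33 at 2.64.

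Of these 16 genes, 1 rose and none fell on ABA and 4 rose and 3 fell on mannitol in the duodecuple line. The wild type had 5 rises and 5 falls on ABA, and 8 rises and 3 falls on mannitol. All listed genes had 17.6% rises and 27.3% falls on wild-type ABA, and 33.1% and 35.3% on wild-type mannitol. On duodecuple mannitol they had 23.3% and 27.2%. AT1G08230, annotated as a proton-driven transporter of gamma-aminobutyric acid, had 15.03, 16.5 and 13.3 FPKM in duodecuple ABA, mannitol and control seedlings, against 39.7, 53.6 and 14.9 FPKM in the same wild-type groups. AT5G41800 and AT5G65990 had the same pattern of calls as AT1G08230, not called in the duodecuple line and higher in both wild-type treatments, and so did AT5G15240; their wild-type rises ran from 2.23-fold to 4.11-fold. AAT1 (AT4G21120), the cationic amino acid transporter also known as CAT1, had 1.07, 7.62 and 1.17 FPKM in duodecuple ABA, mannitol and control seedlings, against 1.94, 15.5 and 1.495 FPKM in the same wild-type groups. Its mannitol rise was 6.52-fold in the duodecuple line and 10.4-fold in the wild type, with no call on ABA in either, and AT1G25530 behaved in the same way, rising 3.63-fold and 4.395-fold on mannitol. AT3G54830 had 9.83, 14.1 and 14.9 FPKM in duodecuple ABA, mannitol and control seedlings, against 1.85, 4.32 and 12.9 FPKM in the same wild-type groups. It was not called in the duodecuple line and fell 6.95-fold and 2.98-fold on ABA and mannitol in the wild type. AUX1 (AT2G38120), which imports the hormone auxin and belongs to the same protein family, was at 16.5 FPKM on mannitol against 34.4 FPKM in control in the duodecuple line, a 2.09-fold fall, and at 18.3 against 36.4 FPKM in the wild type, without a call.

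The UMAMIT genes, named for usually multiple acids move in and out transporters, had few rises in the duodecuple line and more in the wild type. All listed genes went the same direction: 2.49% rose on ABA and 23.3% on mannitol in the duodecuple line. In the wild type 17.6% and 33.1% of them rose. Falls on mannitol came to 27.2% of all listed genes in the duodecuple line and 35.3% in the wild type. Of the 22 UMAMIT genes, 1 rose and 1 fell on ABA and 2 rose and 8 fell on mannitol in the duodecuple line. In the wild type 8 rose and 3 fell on ABA, and 9 rose and 6 fell on mannitol. Their median log2 ratio on mannitol was -0.72 in the duodecuple line and 0.29 in the wild type, beside -0.29 and -0.20 for all listed genes. Among them AT3G02690 is described as a nodulin MtN21 relative but has no UMAMIT name in the reference table.

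UMAMIT29 (AT4G01430), a plasma membrane amino acid exporter of developing seeds, had 3.25, 3.72 and 2.09 FPKM in duodecuple ABA, mannitol and control seedlings, against 37.2, 30.9 and 2.38 FPKM in the same wild-type groups. The duodecuple line had no call, and in the wild type the gene rose 15.6-fold on ABA and 12.98-fold on mannitol. UMAMIT33 (AT4G28040) had 5.89, 3.95 and 2.22 FPKM in duodecuple ABA, mannitol and control seedlings, against 50.5, 43.9 and 7.86 FPKM in the same wild-type groups. It was one of the 3 genes that rose on ABA in the duodecuple line, by 2.65-fold beside 6.43-fold in the wild type, and its duodecuple control was 3.53-fold below the wild-type control. SIAR1 (AT1G44800), the amino acid facilitator UMAMIT18, had 20.97, 17.1 and 28.1 FPKM in duodecuple ABA, mannitol and control seedlings, against 79.2, 69.96 and 30.9 FPKM in the same wild-type groups, and UMAMIT28 (AT1G01070), another exporter of the seed, had 5.16, 6.25 and 5.73 FPKM in duodecuple ABA, mannitol and control seedlings, against 15.2, 17.1 and 6.56 FPKM in the same wild-type groups. Neither was called in the duodecuple line, and both rose in the 2 wild-type treatments.

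UMAMIT14 (AT2G39510), which releases amino acids from the root vasculature, was called opposite ways on ABA. It had 1.11, 1.15 and 2.79 FPKM in duodecuple ABA, mannitol and control seedlings, against 6.29, 1.26 and 1.46 FPKM in the same wild-type groups. The authors called it 2.51-fold lower in the duodecuple line and 4.31-fold higher in the wild type, and it fell 2.43-fold on mannitol in the duodecuple line too, where the wild type had no call. All its values but the one of wild-type ABA seedlings were under 5 FPKM.

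The neighbouring genes UMAMIT20 (AT4G08290) and UMAMIT17 (AT4G08300) were the UMAMIT genes with the largest mannitol falls in the duodecuple line among those at 5 FPKM or more. UMAMIT20 had 13.03, 1.86 and 11.8 FPKM in duodecuple ABA, mannitol and control seedlings, against 33.8, 24.02 and 12.3 FPKM in the same wild-type groups. UMAMIT17 had 9.33, 0.327 and 11.97 FPKM in duodecuple ABA, mannitol and control seedlings, against 6.71, 2.33 and 4.26 FPKM in the same wild-type groups. The duodecuple falls were 6.36-fold and 36.7-fold, whereas neither gene was called on mannitol in the wild type and UMAMIT20 rose 2.74-fold there on ABA. Since the 2 genes lie side by side and are close relatives, reads may have been split between them.

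UMAMIT4 (AT3G18200) fell in both genotypes on mannitol and in the wild type on ABA. Its values were 4.41, 1.31 and 7.78 FPKM in duodecuple ABA, mannitol and control seedlings, against 0.247, 0.202 and 4.38 FPKM in the same wild-type groups. The falls were 5.95-fold in the duodecuple line, and 17.7-fold on ABA and 21.7-fold on mannitol in the wild type, where both treated levels were under 0.3 FPKM. UMAMIT6 (AT3G53210) rose on mannitol alone in either genotype, by 2.89-fold in the duodecuple line and 2.27-fold in the wild type. UMAMIT12 (AT2G37460) fell 4.82-fold on mannitol in the duodecuple line and 2.17-fold in the wild type, and its control level was 2.21-fold higher in the duodecuple line than in the wild type. The mannitol falls of the duodecuple line came with lower root markers in the same group: root hair markers (4 genes) summed to 15.2 FPKM on mannitol and 43.6 FPKM in control, and endodermis markers (CASP1 and CASP2) to 19.8 and 56.2 FPKM. In the wild type the root hair markers summed to 82.7 FPKM on mannitol and 29.0 FPKM in control, and the endodermis markers to 23.0 and 41.3 FPKM. The ABA falls of the wild type also came with lower endodermis markers, which summed to 10.5 FPKM on ABA and 41.3 FPKM in control, CASP1 being called 3.301-fold and CASP2 6.58-fold lower. In the duodecuple line they summed to 54.1 FPKM on ABA and 56.2 FPKM in control, without a call. None of the 4 root hair genes was called on ABA in either genotype. Their sums on ABA and in control were 32.1 and 43.6 FPKM in the duodecuple line, and 21.0 and 29.0 FPKM in the wild type. The part of such tissue differences in the transporter values was not tested.

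**Figure D2:**
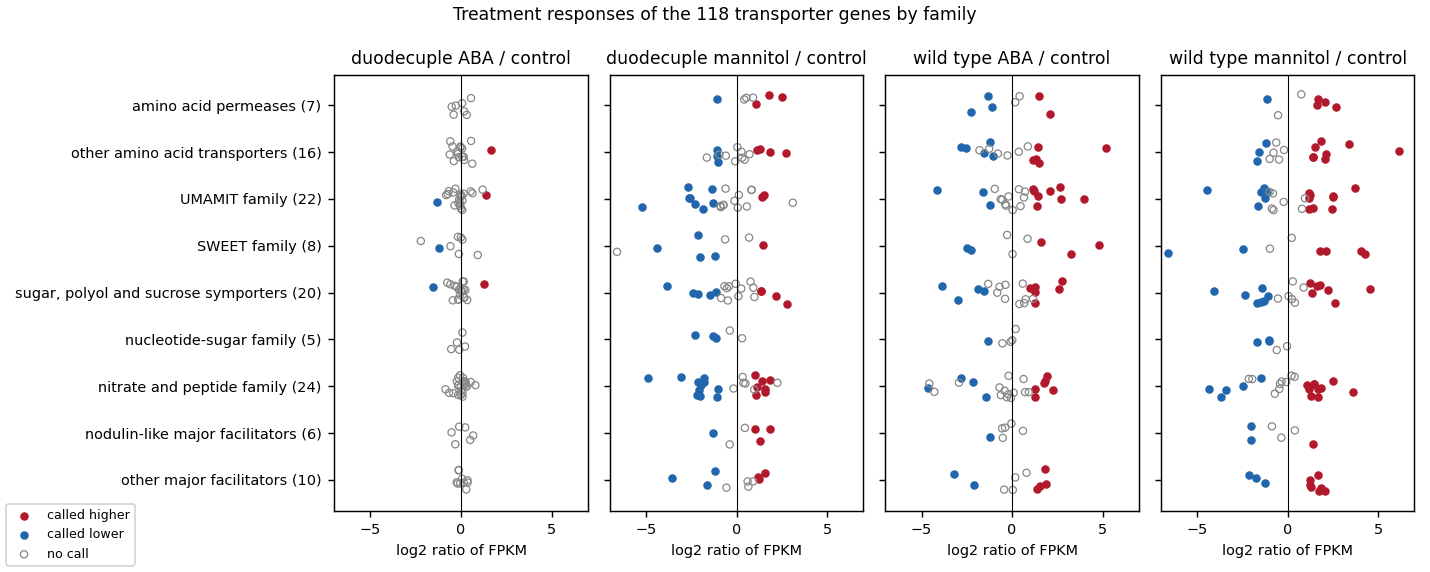
Log2 ratio of treated over control FPKM for each of the 118 genes (1 point each, 8 SWEET and 22 UMAMIT genes among them), by family and by comparison, with red for called higher, blue for called lower and open for no call. In the duodecuple ABA panel 112 points are open; SWEET3, listed at 0 in both mannitol groups, is drawn at the left edge of the mannitol panels.

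Of the 8 SWEET genes, facilitators that let sugars out of cells or across the vacuole membrane, 1 rose and 4 fell on mannitol in the duodecuple line, while 4 rose and 2 fell in the wild type. On ABA none rose and 1 fell in the duodecuple line, and 3 rose and 2 fell in the wild type. Mannitol calls of all listed genes were 23.3% higher and 27.2% lower in the duodecuple line, and 33.1% and 35.3% in the wild type. On wild-type ABA they were 17.6% and 27.3%. Of the 4 SWEET falls on duodecuple mannitol, SWEET10 and SWEET14 were under 5 FPKM in every group. The contrast between the genotypes was not tested. SWEET4 (AT3G28007), a plasma membrane hexose carrier, had 2.29, 3.36 and 1.204 FPKM in duodecuple ABA, mannitol and control seedlings, against 35.9, 62.3 and 3.76 FPKM in the same wild-type groups. It rose 2.79-fold on mannitol in the duodecuple line, where ABA brought no call, and 9.53-fold on ABA and 16.6-fold on mannitol in the wild type. SWEET13 (AT5G50800), a sucrose exporter, had 1.43, 2.51 and 1.55 FPKM in duodecuple ABA, mannitol and control seedlings, against 16.1, 11.4 and 0.589 FPKM in the same wild-type groups. The duodecuple line had no call, and the wild-type rises were 27.4-fold and 19.4-fold. Its response difference on ABA, -4.89, was the lowest of the transporter genes with at least 5 FPKM in the highest group. Of the ABA and control groups, only wild-type ABA passed 5 FPKM for SWEET13. The size of this difference and its rank therefore rest on a wild-type control value of 0.589 FPKM. SWEET1 (AT1G21460), a glucose carrier, had 40.2, 24.6 and 38.1 FPKM in duodecuple ABA, mannitol and control seedlings, against 59.9, 70.3 and 20.1 FPKM in the same wild-type groups, and it too rose in the wild type alone, by 2.98-fold and 3.504-fold.

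SWEET11 (AT3G48740), which exports sucrose from leaf phloem parenchyma for loading into the phloem, was the SWEET gene with the highest level. It had 131, 32.4 and 133 FPKM in duodecuple ABA, mannitol and control seedlings, against 143, 71.2 and 140.0 FPKM in the same wild-type groups. The control and ABA groups of both genotypes lay close together and the mannitol groups were lowest, with a 4.097-fold fall in the duodecuple line and a 1.97-fold lower value without a call in the wild type. SWEET16 (AT3G16690), a sugar carrier of the vacuole membrane, had 10.9, 2.79 and 12.2 FPKM in duodecuple ABA, mannitol and control seedlings, against 2.66, 2.36 and 12.8 FPKM in the same wild-type groups. It fell 4.38-fold on mannitol in the duodecuple line, and 4.81-fold on ABA and 5.43-fold on mannitol in the wild type.

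The remaining SWEET genes were low. SWEET10 (AT5G50790) was listed at 2.47, 0.18 and 3.71 FPKM in duodecuple ABA, mannitol and control seedlings, against 0.301, 0.427 and 0.365 FPKM in the same wild-type groups, a 20.6-fold fall on mannitol in the duodecuple line with no call in the wild type; it neighbours SWEET13, and the control level of the duodecuple line was 10.2-fold above that of the wild type. SWEET14 (AT4G25010) had 0.439, 0.452 and 1.02 FPKM in duodecuple ABA, mannitol and control seedlings, against 0.644, 1.55 and 0.356 FPKM in the same wild-type groups. It was called opposite ways on mannitol, 2.25-fold lower in the duodecuple line and 4.36-fold higher in the wild type, at levels that nowhere passed 1.55 FPKM. SWEET3 (AT5G53190) was listed at 0 in the mannitol groups of both genotypes, beside 0.136 FPKM in duodecuple control and 1.01 FPKM in wild-type control seedlings, and was called lower in the wild type alone, on mannitol and on ABA. Phloem marker genes (4 fixed) were not among the listed genes, so phloem content could not be set beside these values.

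**Figure D3:**
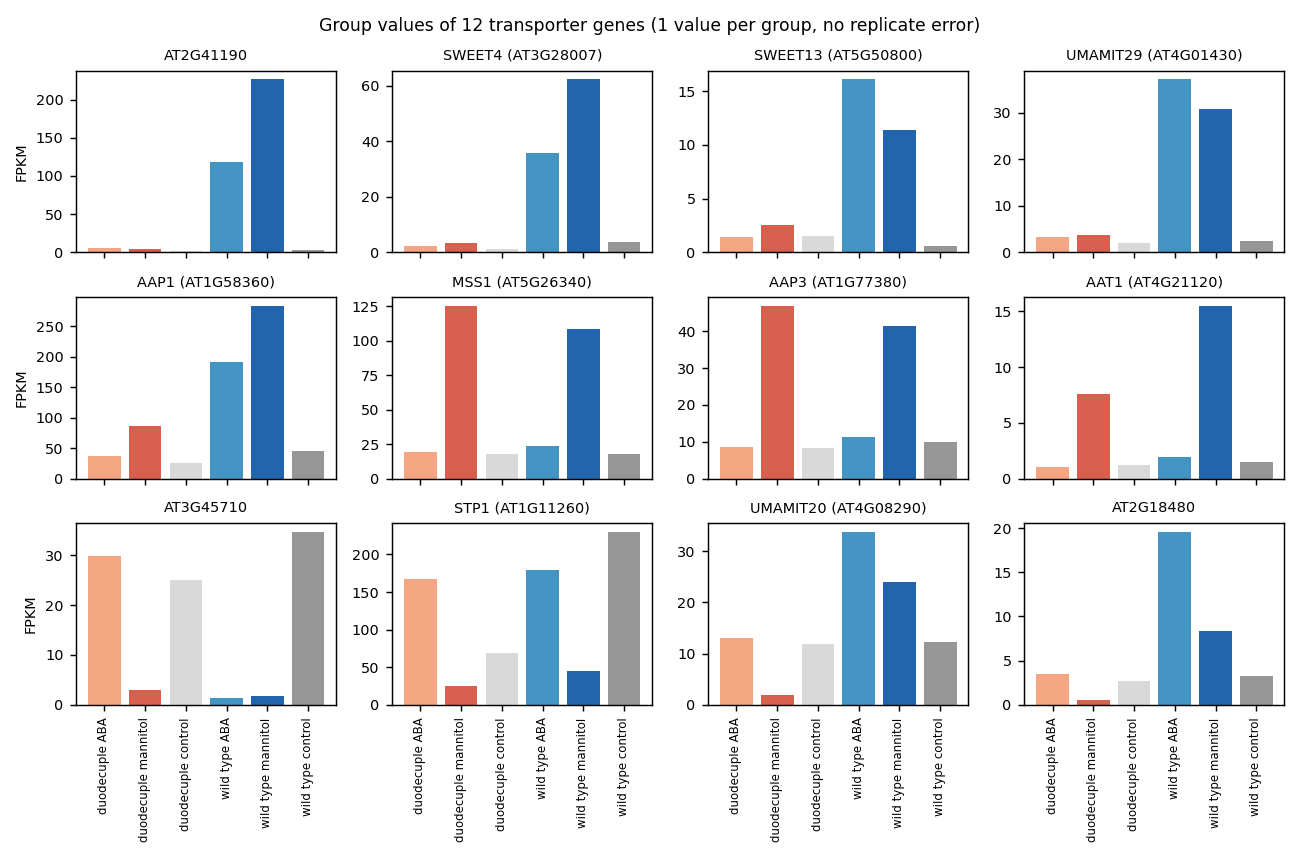
FPKM in the 6 groups for 12 transporter genes, 1 bar per group and 1 axis per gene, each starting at 0, without replicate error. MSS1, AAP3 and AAT1 stand high in the mannitol groups of both genotypes, whereas AT2G41190, SWEET4, SWEET13 and UMAMIT29 stand high in the treated wild-type groups only.

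The promoters of 4 genes are shown, chosen only from named genes whose window held a match to a motif below. They are examples, and do not represent all windows of genes with the same response. SWEET4 and SWEET13 rose in the wild type on ABA and mannitol. UMAMIT20 fell on mannitol in the duodecuple line and rose on ABA in the wild type, and MSS1 rose on mannitol in both. Each promoter is the 300 bases before the annotated gene start, written 5′ to 3′ on the strand of the gene, from the RefSeq copy of assembly TAIR10.1. Capitals mark ACGTG or its reverse complement CACGT, the core of the ABA-responsive element, and in MSS1 GTCGGT, the reverse complement of ACCGAC, the core of the dehydration-responsive element. The windows are chr3:10409978-10410277 on the minus strand (SWEET4), chr5:20667313-20667612 on the minus strand (SWEET13), chr4:5238473-5238772 on the plus strand (UMAMIT20) and chr5:9247541-9247840 on the minus strand (MSS1).
SWEET4: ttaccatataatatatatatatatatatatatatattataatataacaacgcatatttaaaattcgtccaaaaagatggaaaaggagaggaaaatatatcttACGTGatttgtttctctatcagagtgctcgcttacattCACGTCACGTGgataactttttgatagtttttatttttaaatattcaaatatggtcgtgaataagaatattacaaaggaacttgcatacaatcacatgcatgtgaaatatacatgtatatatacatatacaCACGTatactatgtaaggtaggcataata
SWEET13: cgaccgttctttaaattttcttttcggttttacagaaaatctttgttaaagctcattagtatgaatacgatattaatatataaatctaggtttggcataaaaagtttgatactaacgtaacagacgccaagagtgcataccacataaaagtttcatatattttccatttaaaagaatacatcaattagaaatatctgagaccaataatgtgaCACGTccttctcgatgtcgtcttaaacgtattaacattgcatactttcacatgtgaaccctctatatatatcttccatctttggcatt
UMAMIT20: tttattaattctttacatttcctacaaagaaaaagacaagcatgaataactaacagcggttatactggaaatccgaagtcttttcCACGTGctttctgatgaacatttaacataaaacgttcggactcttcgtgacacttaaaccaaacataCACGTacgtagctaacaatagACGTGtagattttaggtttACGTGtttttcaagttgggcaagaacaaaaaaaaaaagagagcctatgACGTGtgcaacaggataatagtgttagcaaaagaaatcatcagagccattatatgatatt
MSS1: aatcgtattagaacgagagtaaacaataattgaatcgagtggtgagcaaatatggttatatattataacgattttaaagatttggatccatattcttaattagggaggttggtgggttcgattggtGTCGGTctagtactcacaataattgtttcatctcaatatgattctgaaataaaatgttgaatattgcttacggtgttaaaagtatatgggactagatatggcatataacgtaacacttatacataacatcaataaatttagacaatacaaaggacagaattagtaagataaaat

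SWEET4 held 5 matches to ACGTG and UMAMIT20 held 6, the highest counts of the 118 windows. Matches were counted on both strands with overlaps, so that a CACGTG counts on both strands. SWEET13 held 1, whereas MSS1 held none, which says only that these letters are not in this window. Among the 6 largest wild-type ABA rises, AT2G41190 also held 1, and UMAMIT29, AT5G18840 and UMAMIT33 held 0. Of all 27443 windows of protein-coding genes 25.6% held ACGTG, and of the 118 transporter windows 38 did, or 32.2%, beside 32.3% of the 6560 listed genes with a window. Among the transporter genes that rose on ABA in the wild type the share was 17 of 34 (50.0%), beside 43.4% of all listed genes that rose; among those that fell it was 6 of 25 (24.0%), beside 29.3%. Among those that rose on mannitol in the wild type it was 17 of 50 (34%), beside 38.4% of all listed genes that rose. ACCGAC stood in 5.45% of all windows, in 8 of 118 transporter windows (6.78%), and in 5 of the 34 that rose on ABA (14.7%), beside 8.21% of listed genes that rose. A match is a description of the sequence, not a site shown to be bound.

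**Figure D4:**
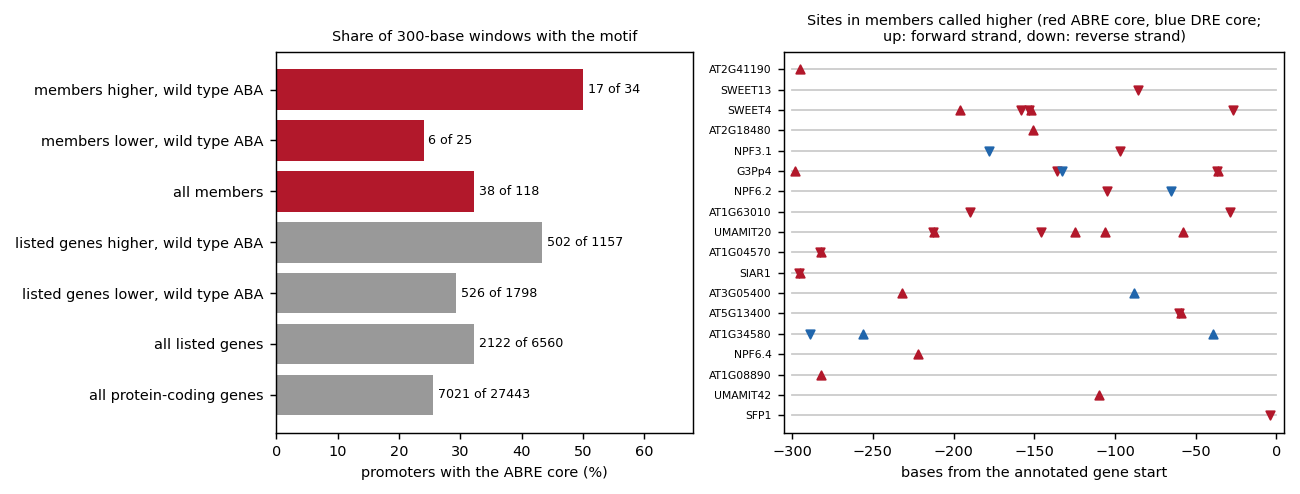
Left, percent of 300-base windows upstream of the gene start that hold ACGTG, for transporter genes (red) and other sets (grey), with counts such as 17 of 34 for transporter genes higher in wild-type ABA seedlings. Right, position of each match, in bases from the annotated gene start, in the transporter genes higher in wild-type ABA seedlings that hold at least 1 match (red ACGTG, blue ACCGAC; up forward strand, down reverse strand).

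Of the 20 carriers of the sugar, polyol and sucrose type, 1 rose and 1 fell on ABA in the duodecuple line. On mannitol 4 rose and 5 fell there. In the wild type 6 rose and 4 fell on ABA, and 7 rose and 7 fell on mannitol. Shares of all listed genes were 17.6% higher and 27.3% lower on wild-type ABA, and 33.1% and 35.3% on wild-type mannitol. On duodecuple mannitol they were 23.3% and 27.2%. MSS1 (AT5G26340), the high-affinity hexose symporter also known as STP13, had 19.3, 125 and 18.1 FPKM in duodecuple ABA, mannitol and control seedlings, against 23.5, 109 and 17.8 FPKM in the same wild-type groups. The mannitol rises of 6.94-fold in the duodecuple line and 6.12-fold in the wild type were nearly equal, with a response difference of 0.18, and ABA brought no call in either genotype. AT5G61520, placed among the sugar carriers by its annotated domain, followed MSS1 with rises of 2.55-fold and 3.102-fold on mannitol.

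STP1 (AT1G11260), the main hexose importer of seedlings, had 167, 25.5 and 69.4 FPKM in duodecuple ABA, mannitol and control seedlings, against 179, 45.5 and 230.2 FPKM in the same wild-type groups. It was one of the 3 genes that rose on ABA in the duodecuple line, by 2.41-fold, where the wild type had no call. Its duodecuple control stood 3.32-fold below the wild-type control, and the ABA levels of the genotypes lay close together. On mannitol it fell in both genotypes, 2.72-fold in the duodecuple line and 5.05-fold in the wild type.

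AT5G18840, annotated as a sugar:proton symporter, had 4.14, 9.702 and 5.68 FPKM in duodecuple ABA, mannitol and control seedlings, against 25.5, 88.99 and 3.84 FPKM in the same wild-type groups. It was not called in the duodecuple line, and rose 6.66-fold on ABA and 23.2-fold on mannitol in the wild type. AT2G18480, of the same annotation, had 3.46, 0.518 and 2.73 FPKM in duodecuple ABA, mannitol and control seedlings, against 19.6, 8.33 and 3.22 FPKM in the same wild-type groups. It was called opposite ways on mannitol, 5.27-fold lower in the duodecuple line and 2.59-fold higher in the wild type, and rose 6.08-fold in the wild type on ABA. AT3G05400 was not called in the duodecuple line and rose 2.44-fold and 4.72-fold in the wild type, and its control level was 2.87-fold higher in the duodecuple line, at 17.5 FPKM, than in the wild type, at 6.09 FPKM.

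PMT6 (AT4G36670), of the polyol transporter family, took different courses in the genotypes. It had 6.85, 26.1 and 10.3 FPKM in duodecuple ABA, mannitol and control seedlings, against 1.35, 7.35 and 10.6 FPKM in the same wild-type groups. It rose 2.54-fold on mannitol in the duodecuple line and fell 7.86-fold on ABA in the wild type, and the other comparisons had no call. SUC5 (AT1G71890), a sucrose and biotin carrier known from the endosperm, rose 4.49-fold on mannitol in the duodecuple line, to 2.78 FPKM, and was not called in the wild type, where it stood at 0.322 FPKM. AT3G05150 fell 14.1-fold on mannitol in the duodecuple line and 14.8-fold and 16.6-fold on ABA and mannitol in the wild type. Its neighbour AT3G05155 was the single transporter gene to fall on ABA in both genotypes, 2.92-fold in the duodecuple line and 3.75-fold in the wild type, at under 1 FPKM in every group. The neighbours SFP1 (AT5G27350) and SFP2 (AT5G27360) differed: neither was called in the duodecuple line, and in the wild type SFP1 rose 2.003-fold on ABA and SFP2 fell 3.28-fold on mannitol.

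None of the 5 genes of the nucleotide-sugar type rose anywhere, and 2 of them, AT1G57980 and AT4G18205, have purine permeases as their closest annotated relatives. On mannitol 3 fell in each genotype, beside 27.2% of all listed genes in the duodecuple line and 35.3% in the wild type. AT1G57980 had 4.52, 1.06 and 5.27 FPKM in duodecuple ABA, mannitol and control seedlings, against 12.1, 6.01 and 12.03 FPKM in the same wild-type groups. It fell 4.96-fold on mannitol in the duodecuple line and 2.001-fold in the wild type, and its duodecuple values were below the wild-type value of the same treatment in each case. AT1G12500 fell 2.48-fold and 3.25-fold on mannitol, to 12.7 FPKM in the duodecuple line and 12.3 FPKM in the wild type.

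The nitrate and peptide family held the largest wild-type falls among genes with at least 5 FPKM. Of its 24 listed genes none was called on ABA and 7 rose and 11 fell on mannitol in the duodecuple line, while in the wild type 6 rose and 4 fell on ABA and 10 rose and 5 fell on mannitol. Among all listed genes 23.3% rose and 27.2% fell on duodecuple mannitol. In the wild type 17.6% rose and 27.3% fell on ABA, and 33.1% and 35.3% on mannitol. AT3G45710 had 29.9, 2.96 and 25.1 FPKM in duodecuple ABA, mannitol and control seedlings, against 1.37, 1.74 and 34.7 FPKM in the same wild-type groups. In the duodecuple line it fell 8.497-fold on mannitol and was not called on ABA, and in the wild type it fell 25.4-fold on ABA and 19.96-fold on mannitol. Its neighbour AT3G45700 had 7.797, 0.242 and 7.16 FPKM in duodecuple ABA, mannitol and control seedlings, against 0.742, 0.423 and 5.33 FPKM in the same wild-type groups, with falls of 29.6-fold on mannitol in the duodecuple line and 7.18-fold and 12.6-fold in the wild type. The pair lies in a row of related genes with AT3G45660 and AT3G45680, so reads may be shared among them, and AT3G45660 rose on mannitol in the duodecuple line, at no more than 1.71 FPKM.

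NPF1.2 (AT1G52190), a nitrate transporter of leaf phloem, had 18.6, 4.69 and 20.7 FPKM in duodecuple ABA, mannitol and control seedlings, against 8.03, 2.14 and 22.2 FPKM in the same wild-type groups. It fell 4.42-fold on mannitol in the duodecuple line, and 2.76-fold and 10.4-fold on ABA and mannitol in the wild type. PTR4 (AT2G02020), of the peptide transporter branch, fell in the same 3 comparisons, by 3.42-fold, 4.45-fold and 5.61-fold. NPF3.1 (AT1G68570), a gibberellin transporter of the root endodermis, went the other way and had 20.1, 57.6 and 16.1 FPKM in duodecuple ABA, mannitol and control seedlings, against 62.1, 158 and 12.8 FPKM in the same wild-type groups. It rose 3.58-fold on mannitol in the duodecuple line, and 4.84-fold and 12.3-fold in the wild type.

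NPF6.2 (AT2G26690), the nitrate transporter of the leaf petiole, had 40.7, 30.6 and 23.5 FPKM in duodecuple ABA, mannitol and control seedlings, against 138, 131 and 40.8 FPKM in the same wild-type groups, and like NPF4.3 and NPF6.4 it was not called in the duodecuple line and rose in both wild-type treatments. NPF5.14 (AT1G72120) rose 2.16-fold on mannitol in the duodecuple line and 3.54-fold and 5.65-fold in the wild type. The glucosinolate importers GTR1 (AT3G47960) and GTR2 (AT5G62680), which move defence compounds to the phloem, rose on mannitol in both genotypes and were not called on ABA. GTR1 had 33.1, 75.6 and 37.1 FPKM in duodecuple ABA, mannitol and control seedlings, against 50.03, 96.7 and 30.4 FPKM in the same wild-type groups. GTR2 had 36.3, 90.1 and 30.4 FPKM in duodecuple ABA, mannitol and control seedlings, against 25.05, 80.99 and 33.2 FPKM in the same wild-type groups. Their mannitol rises were 2.04-fold and 2.96-fold in the duodecuple line and 3.18-fold and 2.44-fold in the wild type.

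None of the 6 nodulin-like major facilitators rose on ABA in either genotype. In the duodecuple line 3 rose and 1 fell on mannitol, and in the wild type 1 fell on ABA and 1 rose and 2 fell on mannitol. For all listed genes the mannitol shares were 23.3% higher and 27.2% lower in the duodecuple line, and 33.1% and 35.3% in the wild type. On ABA 2.49% of them rose in the duodecuple line and 17.6% in the wild type. AT5G14120, the most abundant transporter gene in 4 of the 6 groups, had 275, 180.4 and 234 FPKM in duodecuple ABA, mannitol and control seedlings, against 143, 81.9 and 329 FPKM in the same wild-type groups. It was not called in the duodecuple line, and fell 2.303-fold on ABA and 4.02-fold on mannitol in the wild type. AT4G34950 had 36.6, 35.5 and 25.8 FPKM in duodecuple ABA, mannitol and control seedlings, against 62.9, 22.4 and 89.8 FPKM in the same wild-type groups. It had no duodecuple call and fell 4.01-fold on mannitol in the wild type, and its duodecuple control stood 3.48-fold below the wild-type control. AT2G39210 rose on mannitol in both genotypes, 3.61-fold in the duodecuple line and 2.68-fold in the wild type.

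Of the 10 other major facilitators, 3 rose and 3 fell on mannitol in the duodecuple line, while all 10 were called in the wild type, 7 higher and 3 lower. On ABA none was called in the duodecuple line, and 4 rose and 2 fell in the wild type. Calls were common among all listed genes too: 33.1% rose and 35.3% fell on wild-type mannitol, and 23.3% and 27.2% on duodecuple mannitol. On ABA 17.6% rose and 27.3% fell in the wild type. These 10 genes are those left over by the other groupings, not a single family. AT1G63010, annotated with an SPX domain and a place in the vacuole membrane, had 28.8, 39.6 and 25.96 FPKM in duodecuple ABA, mannitol and control seedlings, against 67.4, 81.03 and 22.9 FPKM in the same wild-type groups. It rose 2.94-fold and 3.53-fold in the wild type alone. G3Pp4 (AT4G17550), of the glycerol-3-phosphate permease family, rose 2.32-fold on mannitol in the duodecuple line and 3.46-fold and 3.16-fold in the wild type. AT5G54860 rose on mannitol in both genotypes by nearly the same factor, 2.23-fold and 2.44-fold, and ABA left it without a call.

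The adjacent genes MEE15 (AT2G16970), AT2G16980 and AT2G16990 are relatives in a row, and the last of them parted from the others. AT2G16990 had 2.31, 1.16 and 2.63 FPKM in duodecuple ABA, mannitol and control seedlings, against 14.95, 13.6 and 4.09 FPKM in the same wild-type groups. It was called 2.28-fold lower on mannitol in the duodecuple line and 3.32-fold higher in the wild type, where it also rose 3.66-fold on ABA. MEE15 and AT2G16980 fell in all 3 of these comparisons, MEE15 by 11.7-fold on mannitol in the duodecuple line and by 9.38-fold and 4.43-fold in the wild type. As with the other adjacent relatives, 15 such pairs within 3 genes of each other in all, how the authors' counting placed reads that fit more than 1 copy is not given in the sources used here.

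Set side by side, the genotypes shared few ABA calls and many mannitol calls, among the 118 genes as among all listed genes. Of the genes that rose on ABA, 2 were called in both genotypes, which is 66.7% of the 3 of the duodecuple line and 5.88% of the 34 of the wild type, beside 67.9% and 9.62% for all listed genes. A single fall was shared, 33.3% of 3 in the duodecuple line and 4% of 25 in the wild type, beside 42.0% and 4.30% for all listed genes. The genes that rose on ABA in the wild type had a median log2 ratio of 0.16 in the duodecuple line and 1.57 in the wild type, beside 0.28 and 1.63 for all listed genes that rose there. Those that fell had -0.24 and -2.09, beside -0.27 and -1.59 for all listed genes that fell. On mannitol 20 rises were shared, 74.1% of 27 in the duodecuple line and 40.0% of 50 in the wild type, beside 64.7% and 45.6% for all listed genes. Falls on mannitol were shared by 17 genes, 43.6% of 39 in the duodecuple line and 53.1% of 32 in the wild type, beside 56.1% and 43.3% for all listed genes.

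The 20 genes that rose on mannitol in both had median log2 ratios of 1.51 in the duodecuple line and 2.06 in the wild type, and they came from 8 families, with 5 of the nitrate and peptide family and 3 each of the permeases, the other amino acid transporters and the other major facilitators. The 30 genes that rose on mannitol in the wild type alone had medians of 1.65 there and 0.43 in the duodecuple line. Alone here means not called the same way in the other genotype. SWEET14, AT2G18480 and AT2G16990, called opposite ways, therefore count among these 30 and among the 22 falls below. The 30 took in 7 UMAMIT genes, 5 other amino acid transporters and 5 carriers of the sugar, polyol and sucrose type. The genotypes' responses differed at least 2-fold for 22 of the 30. This count and the next like it used no minimum level, and the matching share of all listed genes was not computed. The genes were picked for a call in 1 genotype that the other lacked. Every call was at least 2-fold, and transporter genes without a call were under 2-fold wherever they reached 5 FPKM. The gaps between such medians, and these counts, thus follow largely from the selection and are not further evidence. The 22 genes that fell on mannitol in the duodecuple line alone had medians of -1.58 there and -0.44 in the wild type. Of the 22, 6 were UMAMIT genes, 6 nitrate and peptide family genes and 3 SWEET genes. Between responses 14 of the 22 differed at least 2-fold. Of these 14, UMAMIT8, UMAMIT14, UMAMIT34, SWEET10, SWEET14 and AT3G05155 were under 5 FPKM in the mannitol and control groups of both genotypes. The 8 others of the 22 differed by less than 2-fold. AUX1, for example, stood at -1.06 and -0.99 in the duodecuple line and wild type on the log2 scale. Only 7 genes rose on mannitol in the duodecuple line alone, among them PMT6, SUC5 and CAT5 (AT2G34960), a cationic amino acid transporter at 2.398 FPKM in that group.

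**Figure D5:**
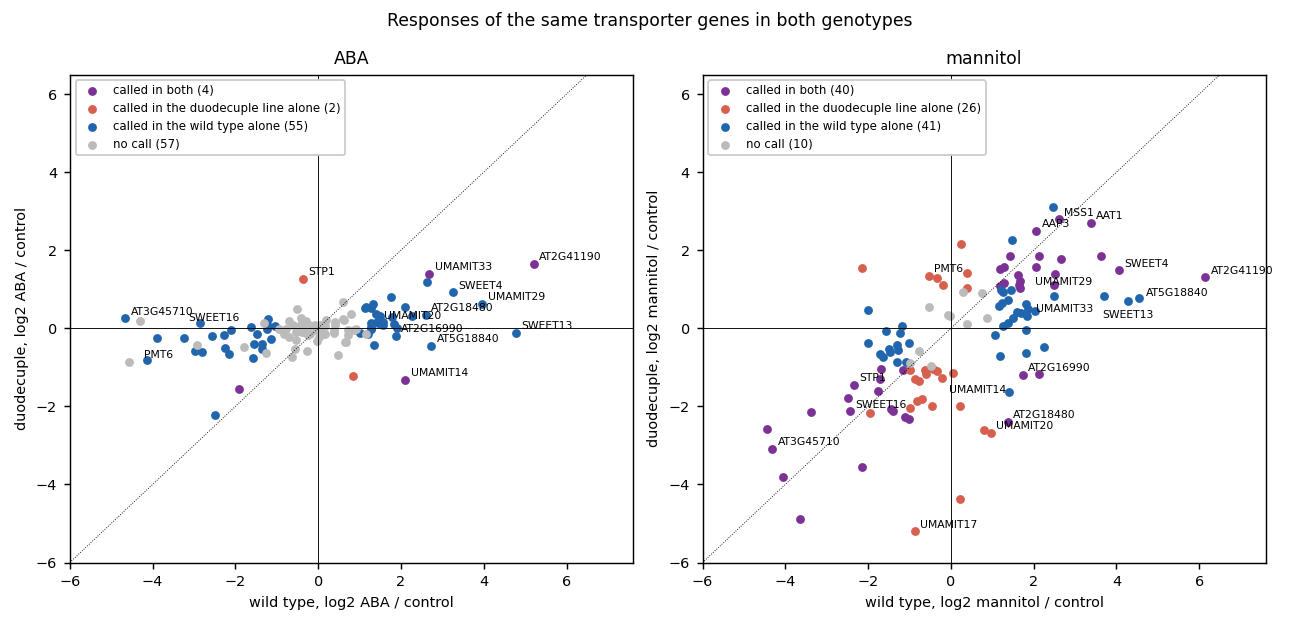
Log2 ratio of treated over control in the duodecuple line (vertical) against the wild type (horizontal) for the transporter genes, on ABA (left, 118 genes) and on mannitol (right, 117 genes, without SWEET3), coloured by the authors' calls; the dotted line marks equal responses. Here a gene counts as called in both whether its calls went the same way or opposite ways. On ABA 4 genes were called in both genotypes, 2 in the duodecuple line alone and 55 in the wild type alone. On mannitol 40 were called in both, 26 in the duodecuple line alone and 41 in the wild type alone.

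Direct ratios of the genotypes carry no authors' call and are counted from 2-fold upwards where at least 1 genotype reached 5 FPKM. Few genes passed 2-fold in control seedlings, where the largest ratio was 3.53-fold, for UMAMIT33, lower in the duodecuple line. Of 78 genes at that level 4 were higher and 6 lower in the duodecuple control than in the wild-type control (5.13% and 7.69%), beside 5.42% and 4.07% of all listed genes. On ABA 12 of 85 were higher and 33 lower in the duodecuple line (14.1% and 38.8%), beside 22.5% and 21.4%. On mannitol 5 of 77 were higher and 33 lower (6.49% and 42.9%), beside 17.2% and 21.6%. The median log2 ratio of duodecuple over wild type was -0.46 on ABA, -0.67 on mannitol and -0.11 in control, where all listed genes had 0.06, 0.05 and -0.05.

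The lowest genotype ratios on ABA belonged to AT2G41190, 19.2-fold lower in the duodecuple line, SWEET4 (15.7-fold lower), UMAMIT29 (11.4-fold lower) and SWEET13 (11.2-fold lower). On mannitol they belonged to AT2G41190 (46.5-fold lower), SWEET4 (18.5-fold lower), AT2G18480 (16.1-fold lower) and UMAMIT20 (12.9-fold lower). The highest ratios on ABA, AT3G45710 at 21.8-fold, AT3G45700 at 10.5-fold and AAP6 at 6.75-fold higher in the duodecuple line, were of genes that fell on ABA in the wild type. The response differences, duodecuple minus wild type, gave the same lean: on ABA 17 of 89 genes were at least 2-fold higher and 28 lower (19.1% and 31.5%), beside 21.8% and 17.0% of all listed genes. On mannitol 10 of 90 were higher and 33 lower (11.1% and 36.7%), beside 17.0% and 17.8%. At 4-fold the ABA lean was nearly gone, with 7 higher and 8 lower, and on mannitol 1 was higher and 12 lower. These ratios rest on the same 6 values as the levels above and are not further evidence.

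The listed genes of linked pathways are given by their calls. Beside all these pathway counts stand the shares of all listed genes. On ABA 2.49% rose and 2.79% fell in the duodecuple line, and 17.6% and 27.3% in the wild type. On mannitol the shares were 23.3% and 27.2%, and 33.1% and 35.3%. The table lists called genes, so pathway genes outside it drop out of the counts. No pathway was tested. Of 15 sucrose synthases, sucrose-phosphate synthases and invertases 9 were listed, of which 1 rose on ABA and 1 rose and 1 fell on mannitol in the duodecuple line, and 6 rose and 2 fell on ABA and 5 rose on mannitol in the wild type. SUS3 (AT4G02280), a sucrose synthase that splits sucrose, had 9.34, 15.01 and 3.804 FPKM in duodecuple ABA, mannitol and control seedlings, against 76.5, 122 and 8.79 FPKM in the same wild-type groups, and it rose in all 4 comparisons. SPS2F (AT5G11110), which makes sucrose phosphate, rose 4.96-fold and 4.32-fold in the wild type alone.

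All 5 genes of amino acid breakdown were listed, with no call on ABA and 2 rises and 1 fall on mannitol in the duodecuple line, and 3 rises on ABA and 4 on mannitol in the wild type. LKR/SDH (AT4G33150), the enzyme that opens lysine breakdown, had 38.3, 37.7 and 25.1 FPKM in duodecuple ABA, mannitol and control seedlings, against 308, 491 and 36.8 FPKM in the same wild-type groups. BCAT2 (AT1G10070), a branched-chain aminotransferase, rose on mannitol in both genotypes, 8.67-fold in the duodecuple line and 6.196-fold in the wild type. Of 12 genes that make glutamine, glutamate and asparagine 6 were listed, with no call on ABA and 1 fall on mannitol in the duodecuple line, and 1 fall on ABA and 2 rises and 2 falls on mannitol in the wild type. The cytosolic glutamine synthetases GLN1;1 (AT5G37600) and GLN1;3 (AT3G17820) rose 4.54-fold and 4.04-fold on wild-type mannitol and were not called in the duodecuple line. The plastid glutamine synthetase GLN2 (AT5G35630) fell 2.44-fold and the glutamate synthase GLU1 (AT5G04140) 4.62-fold on wild-type mannitol. The glutamate dehydrogenase GDH1 (AT5G18170) fell 2.897-fold on wild-type ABA, and the glutamine synthetase GLN1;4 (AT5G16570) 2.01-fold on duodecuple mannitol.

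Of 15 ammonium and nitrate transporters outside the 118 genes 5 were listed, with 1 rise on ABA and 3 rises and 2 falls on mannitol in the duodecuple line, and 2 rises and 1 fall on ABA and 2 rises and 2 falls on mannitol in the wild type. NRT1.8 (AT4G21680), which takes nitrate back from the xylem, had 13.6, 50.03 and 5.15 FPKM in duodecuple ABA, mannitol and control seedlings, against 57.2, 56.2 and 5.88 FPKM in the same wild-type groups, and it rose in all 4 comparisons. The ammonium transporter AMT1;2 (AT1G64780) fell on mannitol in both genotypes, 2.82-fold in the duodecuple line and 5.08-fold in the wild type. AMT1;3 (AT3G24300) fell 2.61-fold on mannitol in the duodecuple line, and 2.39-fold on mannitol and 5.82-fold on ABA in the wild type, all from levels under 5 FPKM. Of 5 glutamine dumpers, small membrane proteins that raise amino acid export, 2 were listed, and both fell on mannitol in the duodecuple line and were not called elsewhere. Of 5 plasma membrane proton pumps, which energise the symporters, AHA11 (AT5G62670) was listed, and it fell on mannitol in both genotypes, 2.11-fold in the duodecuple line and 2.47-fold in the wild type. Shoot markers also differed with treatment: 6 photosynthesis genes summed to 14966 FPKM on mannitol and 26516 FPKM in control in the duodecuple line, and to 4855 and 26415 FPKM in the wild type. These sums rest mostly on the 3 RBCS genes and LHCB1.3. On mannitol 2 of the 6 were called lower in the duodecuple line and 5 of the 6 in the wild type. Duodecuple LHCB1.1 had 259 FPKM on mannitol and 148 FPKM in control and LHCB2.1 had 121 and 78.9 FPKM, both without a call. On ABA 2 of the 6 were called lower in each genotype. The part of these markers in the transporter values was not tested.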

How the data were processed

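Seedling RNA was sequenced in 18 libraries, 3 for each of 6 groups, and groups were taken from the labels. Per the submitters' processing notes the authors used TopHat, Cufflinks and Cuffdiff with TAIR10, without versions or settings. The authors deposited 1 value per group, read as FPKM since that is what Cufflinks reports, log2 ratios of treated over control, and a yes or no call per comparison, whose rule is not given in the sources used here. The deposited log2 ratios equalled the ratios of the deposited FPKM values within 4.68e-05, so that no pseudocount was added.

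Depth and replicate error per library are unknown, so no test, interval or detection limit was computed, and the planned models could not be fitted. A rise or fall is an authors' call. Every called transporter gene was at least 2-fold apart, and 2, 4, 7 and 2 transporter genes 2-fold apart without a call (duodecuple ABA, duodecuple mannitol, wild-type ABA, wild-type mannitol) were all under 5 FPKM. Ratios between genotypes and response differences were computed from the group values and counted at 2-fold with at least 5 FPKM in the highest group. All 118 genes matched the RefSeq gene table of TAIR10.1, and 60 took a name from it; domains from its annotation grouped the sugar and major facilitator genes after the values had been seen. Promoter windows of 300 bases came from the same assembly, the files giving no coordinates, and 6560 listed genes had one. The protein-coding genes numbered 27443.

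The genes, linked-pathway lists, markers and naming rule were chosen with earlier results of these data known. The rule named the 6 largest called rises and falls per comparison and the 4 largest genotype ratios and response differences per direction, all at 5 FPKM or more, the SWEET genes, the highest gene per phrase, opposite calls and the 3 nearest in shape to AT2G41190; further genes were named after their values were seen. Counting was tested on simulated data. Python 3.11.15, numpy 2.4.6, pandas 2.3.3 and matplotlib 3.10.9 were used.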

Additional observations from a re-analysis of the deposited data

Results flagged for a closer look

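The authors' calls went opposite ways in the genotypes, lower in the duodecuple line and higher in the wild type, for 4 transporter genes, and the difference was not tested in any of them. UMAMIT14 (AT2G39510) on ABA had a response difference, duodecuple minus wild type, of -3.43 on the log2 scale. On mannitol AT2G18480 had -3.77, SWEET14 (AT4G25010) had -3.29 and AT2G16990 had -2.92. The highest level of each gene in the 4 groups of its comparison (treated and control of both genotypes) was 6.29 FPKM for UMAMIT14, 1.55 FPKM for SWEET14, 8.33 FPKM for AT2G18480 and 13.6 FPKM for AT2G16990.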

How the results depend on the processing

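Values per library were not analysed here, so no replicate could be left out. No paired analysis was possible because the table holds 1 value per group without replicate numbers. Calls were also limited to genes of at least 5 FPKM, or replaced by 2-fold at 5 FPKM. Either way 0 genes fell on ABA in the duodecuple line. On mannitol 19 rose and 22 fell there, a smaller lean than the 27 and 39 of all calls. With 1 FPKM added to both values, duodecuple ABA falls came to 0, mannitol rises to 16 and mannitol falls to 26. At 4-fold, 0 rose and 0 fell on ABA and 4 rose and 19 fell on mannitol in the duodecuple line, and 11 rose and 13 fell on ABA and 19 rose and 12 fell on mannitol in the wild type. At 4-fold, genotype ratios were higher and lower for 0 and 0 genes in control, 7 and 12 on ABA and 1 and 14 on mannitol, and response differences for 7 and 8 on ABA and 1 and 12 on mannitol. With no minimum level, genotype ratios were higher and lower for 11 and 11 genes in control, 27 and 39 on ABA and 14 and 44 on mannitol. Response differences were then higher and lower for 26 and 34 genes on ABA and 16 and 42 on mannitol. With 1 FPKM added, the response difference on mannitol was higher for 5 and lower for 29. Without the 58 genes found by major facilitator alone, 10 rose and 20 fell on mannitol in the duodecuple line, 18 rose and 14 fell on ABA and 25 rose and 17 fell on mannitol in the wild type. In the same set, genotype ratios were lower for 3 in control, higher and lower for 7 and 17 on ABA and for 3 and 18 on mannitol, and response differences for 9 and 15 on ABA and 3 and 19 on mannitol. These lower counts follow from stricter limits or fewer genes, and higher ones from counting low genes. The 4-fold limit also turned the lean on wild-type ABA from rises to falls, and left the response differences on ABA nearly even, at 7 and 8. Adding AT5G13170 moved no count of calls by over 1.5 times.

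The calls rest on group values whose precision is unknown, ratios of genes under 5 FPKM are the least certain, and how reads of adjacent relatives were assigned is not known here. Tissue markers changed with mannitol and, for endodermis in the wild type and some shoot genes in both genotypes, with ABA, so levels in whole seedlings are not levels per cell.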
